A study of Mus musculus with 4 samples.

Results

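The enzymes that release fatty acids from stored triglyceride, together with the proteins that regulate them, were followed across 4 cultures of 3T3-L1 adipocytes. The set held 10 genes, taken by their gene name in the scanner files: Lipe, Pnpla2, Mgll, Abhd5, G0s2, Aqp7, Pde3b, Ces1f, Ces1d and Pnpla3. They were measured by 17 of the 55681 probes and are 10 of the 35019 genes named on the array.

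Lipolysis removes the fatty acids of a triglyceride in turn. Adipose triglyceride lipase (Pnpla2) acts on the triglyceride, hormone-sensitive lipase (Lipe) on the diglyceride and monoglyceride lipase (Mgll) on the monoglyceride, and the glycerol left over leaves the fat cell through the channel aquaporin 7 (Aqp7). Pnpla2 is activated by the protein Abhd5 and inhibited by G0s2, while cyclic AMP starts the process through protein kinase A and Pde3b, a phosphodiesterase, ends that signal under insulin.

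3T3-L1 is an established mouse embryo fibroblast line, derived from a clone, that becomes fat-storing under a hormone cocktail. The cultures, labelled as adipocytes, received PBS, 25 µM daidzein (a soybean isoflavone), 100 µg/ml PT (the series' pig testis extract) or both agents, each for 7 days. Total RNA of each group was hybridised to 1 single-colour Agilent array, so there were 4 arrays and no replicates. The series title places the question in adiponectin expression and secretion. PT is an extract of undivided tissue whose active component is not named in the labels, all 4 groups, the PBS control included, carry the label of adipocytes.

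All 4 arrays lay on 1 slide, and between 49.7% and 51.4% of the non-control spots were well above background on an array, with no saturated spot. The arrays without PT were in slide row 1 and those with PT in slide row 2, so PT and slide row cannot be told apart. Of 11 adipocyte markers, 10 were well above background on all arrays or on the pair compared, and leptin (Lep) was below background on all 4. All 10 were at least 2-fold higher with daidzein+PT than with PBS (median log2 difference 3.54), 10 with daidzein alone (median 2.52) and 8 with PT alone (median 1.20). In the limma fit described further on, all 10 were called higher with daidzein and with PT under the intensity trend and 0 without it, 10 and 10 being at an unadjusted p under 0.05. The 10 preadipocyte and fibroblast markers had medians of -0.25, -0.23 and -0.03 in these comparisons, and none differed 2-fold. Of them, 4 were called lower with daidzein under the trend (0 without it, 5 at an unadjusted p under 0.05). The share of all genes at that unadjusted p was not counted. In RNA of a whole culture, fewer cells of a type and less RNA per cell cannot be told apart, and the part of the adipocyte markers in the lipolysis values below was not tested. Markers of leukocytes (5 of 8 on the array measured), endothelium (2 of 5), hepatocytes (1 of 5), skeletal muscle (1 of 5) and germ and Sertoli cells (2 of 6) held no gene measured on both arrays that differed 2-fold in PT over PBS or in daidzein+PT over PBS. Among those above background on 1 array of a pair, the hepatocyte marker Alb read 0.147 with PT and 0.0104 with PBS. The PT reading was 5.31-fold over the PBS floor (defined in the processing section), and Alb was below background with daidzein and with both. The muscle marker Myh1 read 0.0566 with PBS and 0.0123 with both. Its PBS reading was 2.23-fold over the floor of the array with both. Adgre1 and Ptprc were below background on every array.

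Levels are given as relative signal, the processed spot signal divided by the 75th percentile of all probes on the same array, with the error that Feature Extraction assigned to the spot. That error describes 1 spot and not the spread between cultures. Relative signals of different probes are not comparable, since each probe binds with its own strength. As a scale for differences between arrays, the SD of a log2 difference was estimated from the departure from additivity over all genes measured on the 4 arrays, scaled to a difference of 2 arrays. It was 0.33 in the dimmest of 3 equal classes of genes, 0.14 in the middle class and 0.11 in the brightest. With 1 array a group these values describe the 4 libraries, and no p-value exists for a single comparison.

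The main lipase, its partner lipases and its inhibitor shared an order of arrays: lowest with PBS, then PT, then daidzein, and highest with both agents. This order held in 8 of the 10 genes, and in 7 of the 9 that were well above background on all 4 arrays. Over all genes well above background on every array it held in 1830 of 18361, or 9.97%. The exceptions were Aqp7, whose lowest array was PT, and Ces1d, which was slightly higher with PT than with daidzein.

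**Figure D1:**
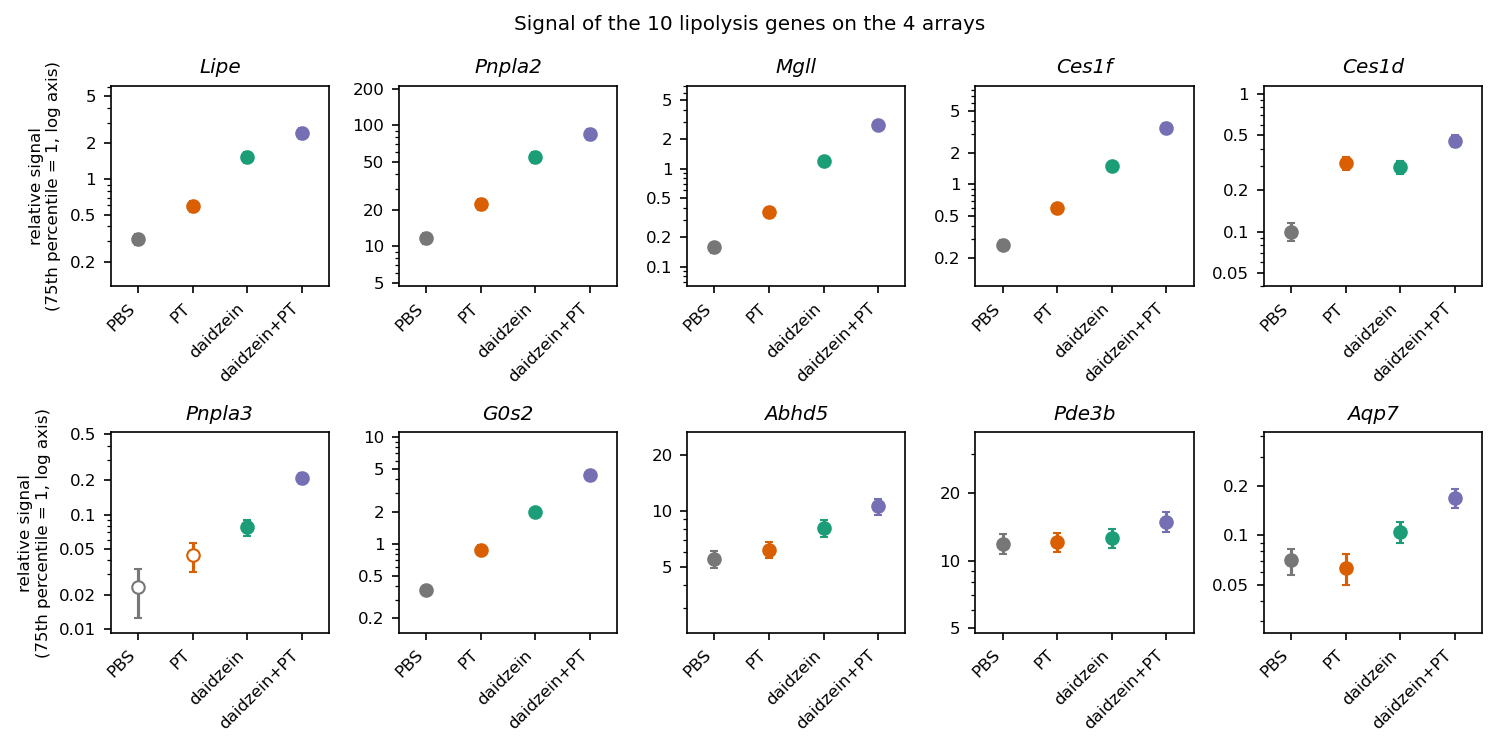
Relative signal of the probe representing each of the 10 genes (vertical log axis, array's 75th percentile set to 1, each panel with its own range) on the 4 arrays (horizontal axis, 1 array a group). Bars show the spot error, open points were not well above background. Pnpla2 ran from 11.7 with PBS to 84.5 with daidzein+PT, while Pde3b stayed between 11.9 and 14.9.

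The sequences below are the probe parts of genes on which the main contrasts turn: a lipase that followed daidzein closely, the last lipase of the chain, the inhibitor and the activator of Pnpla2, and the carboxylesterase whose order differed. Each is the 60-base probe as deposited, written 5′ to 3′, and the 5 shown lie in the protein-coding part by their open reading frame. The capitals in the G0s2 probe mark the start codon, which 16 bases precede.
Lipe probe: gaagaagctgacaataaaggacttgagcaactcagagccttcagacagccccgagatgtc
Mgll probe from base 666: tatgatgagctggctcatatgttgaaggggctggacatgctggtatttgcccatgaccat
G0s2 probe: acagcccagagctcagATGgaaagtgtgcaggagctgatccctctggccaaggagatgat
Abhd5 probe from base 503: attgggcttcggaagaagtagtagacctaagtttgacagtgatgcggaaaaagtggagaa
Ces1d probe: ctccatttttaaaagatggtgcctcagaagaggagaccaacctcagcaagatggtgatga

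Among the lipases, Pnpla2 was measured by 1 probe at chr7:148645928-148645987 on the plus strand (mm9, as are all probe positions). Its relative signal was 11.7 ± 1.17 with PBS, 22.4 ± 2.24 with PT, 54.7 ± 5.47 with daidzein and 84.5 ± 8.45 with daidzein+PT. The 4 arrays were separated by more than their spot errors. Daidzein over PBS was 4.68-fold (log2 2.23), PT over PBS 1.92-fold (0.94) and both over PBS 7.23-fold (2.85). Added to daidzein, PT gave 1.55-fold (0.63).

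Lipe, the diglyceride lipase, lay at chr7:26165828-26165887 on the minus strand. It read 0.312 ± 0.0329 with PBS, 0.59 ± 0.06 with PT, 1.53 ± 0.153 with daidzein and 2.44 ± 0.244 with daidzein+PT. On the processed signal its profile followed that of Pnpla2 closely. The difference from PBS was 4.9-fold with daidzein, 1.89-fold with PT and 7.8-fold with both (log2 2.29, 0.92 and 2.96). In each of the 5 comparisons the log2 difference of Lipe was within 0.13 of that of Pnpla2. Under normexp background correction, an alternative that adds an offset of 50 to every spot and so shrinks differences of dim spots, the Lipe difference minus that of Pnpla2 was -0.26 with PT, -0.47 with daidzein and -0.41 with both.

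Mgll, which completes glycerol release, had 4 probes. The representing probe, from transcript base 3928 (chr6:88778292-88778351), read 0.157 ± 0.0188 with PBS, 0.362 ± 0.0381 with PT, 1.19 ± 0.12 with daidzein and 2.81 ± 0.281 with both. With both agents Mgll was 17.9-fold over PBS (log2 4.17), the largest value of the set on the processed signal. It was 3.40 with the mean over its probes, below Ces1f (3.70) and G0s2 (3.59), and 3.05 under normexp, beside 3.08 for G0s2. Daidzein over PBS was 7.63-fold (log2 2.93) and PT over PBS 2.31-fold (1.21). PT added to daidzein was 2.35-fold (1.23). Under normexp the PT difference of Mgll was 0.59 without daidzein and 1.10 with it.

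A second Mgll probe, from base 1612 (chr6:88775976-88776035), read 0.0618 with PBS, 0.12 with PT, 0.436 with daidzein and 1.08 with both. Its log2 differences from PBS of 0.95 with PT, 2.82 with daidzein and 4.13 with both were close to those of the representing probe. The coding probe printed above, from base 666 (chr6:88714636-88714695), was not well above background with PBS (0.0181 ± 0.012) and read 0.087 with PT, 0.302 with daidzein and 0.571 with both. Against a floor of 0.0277, the dimmest probe well above background with PBS, these levels were 3.14-fold, 10.9-fold and 20.6-fold higher. That floor is not a detection limit, since the Pde3b probe from base 6507 read 0.047 with PBS and was not well above background. The probe from base 767 (chr6:88716266-88716325) was below background on all 4 arrays, with readings from 0.00974 to 0.0124. Mgll probes at different positions thus differed in whether signal was detected, and the cause was not tested. The probe from base 767 lists 2 transcripts, and each other Mgll probe lists 4.

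**Figure D2:**
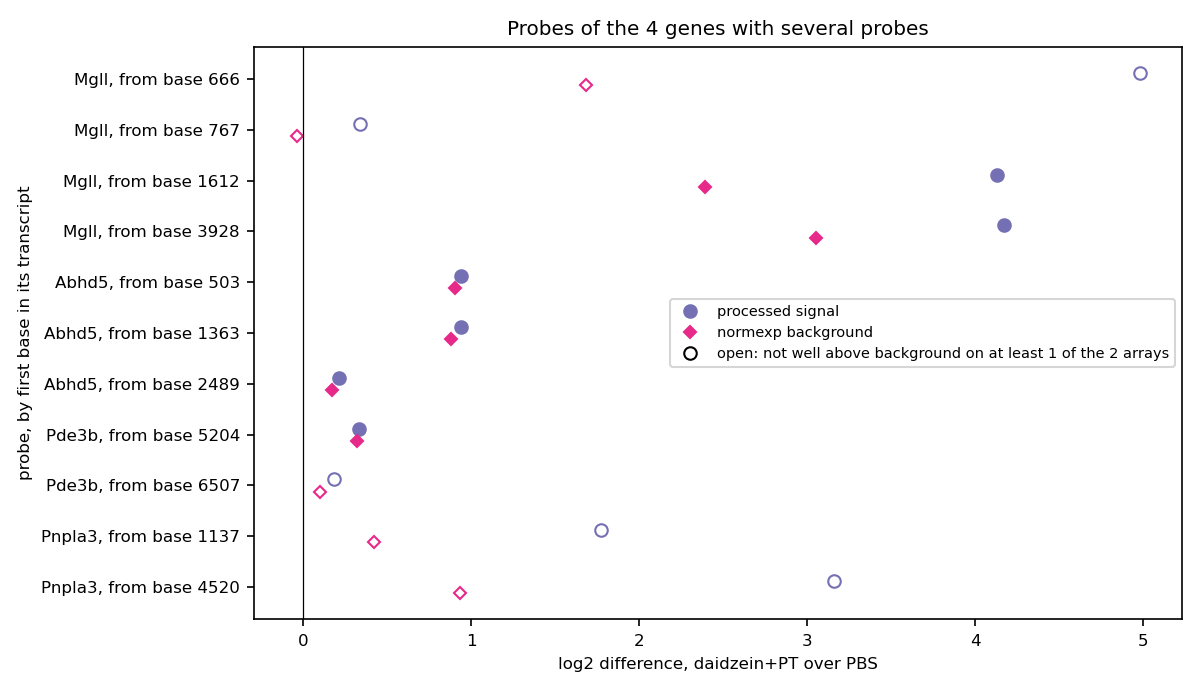
Log2 difference of daidzein+PT over PBS (horizontal axis) for each of the 11 probes of Mgll, Abhd5, Pde3b and Pnpla3 (vertical axis, by first base in the transcript). Circles use the processed signal and diamonds the normexp background correction, and open symbols mark probes not well above background on at least 1 of the 2 arrays. The Mgll probes from bases 1612 and 3928 sit at 4.13 and 4.17, and 1 Abhd5 probe sits at 0.21 beside 2 at 0.94.

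The regulators of Pnpla2 did not move by like amounts. G0s2, its inhibitor (chr1:195098925-195098984, minus strand), read 0.366 ± 0.0378 with PBS, 0.876 ± 0.0882 with PT, 1.97 ± 0.197 with daidzein and 4.4 ± 0.44 with both. These values do not overlap within their spot errors. The inhibitor was 5.39-fold higher with daidzein (log2 2.43), 2.39-fold with PT (1.26) and 12-fold with both (3.59). PT on top of daidzein gave 2.23-fold (1.16). Beside Pnpla2 on the same arrays, the G0s2 log2 difference from PBS was larger by 0.32 with PT, 0.20 with daidzein and 0.73 with both. Under normexp the G0s2 difference minus that of Pnpla2 was 0.05, -0.24 and 0.28, so its direction turned with daidzein.

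Abhd5, the activator, had 3 probes. The representing probe, from base 1363 (chr9:122288857-122288916), read 5.51 ± 0.552 with PBS, 6.17 ± 0.617 with PT, 8.09 ± 0.809 with daidzein and 10.6 ± 1.06 with both. The PBS and PT values overlapped within their errors, and those with daidzein were higher. Log2 differences from PBS were 0.16 with PT, 0.55 with daidzein and 0.94 with both, under 2-fold in each. The printed probe from base 503 (chr9:122277200-122277259) gave 0.18, 0.56 and 0.94. The probe from base 2489 (chr9:122289983-122290042) gave 0.03, 0.15 and 0.21, from readings of 2.76 with PBS and 3.19 with both. The log2 difference of Abhd5 from PBS minus that of Pnpla2 was -0.78 with PT, -1.67 with daidzein and -1.91 with both. Under normexp these values were -0.75, -1.64 and -1.92. The RNA of the activator thus differed less from PBS than that of the lipase; protein was not analysed here.

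The other hydrolases of the set were 2 carboxylesterases of the endoplasmic reticulum and a relative of Pnpla2. Ces1d, also known as triacylglycerol hydrolase, read 0.1 ± 0.0151 with PBS, 0.313 ± 0.0339 with PT, 0.293 ± 0.0314 with daidzein and 0.458 ± 0.0481 with both. The PT and daidzein arrays overlapped within their errors, the only pair of treated arrays of Ces1d to do so. PT over PBS was 3.14-fold (log2 1.65) and daidzein over PBS 2.93-fold (1.55), while both over PBS was 4.58-fold (2.20). The PT over PBS value of Ces1d was the highest of the set on the processed signal, but under normexp it was 0.70, below G0s2 (0.96), Pnpla2 (0.91) and Ces1f (0.73). Its probe aligns over chr8:95693648-95694933 on the minus strand, a span of 1286 bases for 60 bases of probe.

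Ces1f, a close relative in the same gene cluster (chr8:95780225-95780284, minus strand), behaved otherwise. It read 0.267 ± 0.0285 with PBS, 0.593 ± 0.0604 with PT, 1.5 ± 0.15 with daidzein and 3.46 ± 0.347 with both. The differences from PBS were 2.22-fold, 5.62-fold and 13.0-fold (log2 1.15, 2.49 and 3.70). The Ces1 genes are related copies, and cross-hybridisation between them was not tested.

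Pnpla3, a lipase-like protein known from inherited fatty liver, was dim. Its representing probe, from base 4520 (chr15:84019823-84019882), was not well above background with PBS (0.0232 ± 0.0106) or PT (0.0441 ± 0.0123), and read 0.0776 ± 0.0128 with daidzein and 0.208 ± 0.0246 with both. By this probe Pnpla3 was 2.8-fold with daidzein and 7.48-fold with both over the PBS floor of 0.0277. With both it was 4.7-fold over its own PT reading, which was above the PT floor. By the probe from base 1137 (chr15:84016440-84016499) these ratios were 2.39 and 3.39 over the PBS floor, and 4.09 over the PT floor. The floors are not detection limits, so the true ratios could be smaller. PT added to daidzein gave 2.67-fold (log2 1.42), measured on both arrays, and 0.64 under normexp. The probe from base 1137 gave 0.50 for that difference, with 0.0663 on the daidzein array and 0.0939 on the array with both. The sizes for Pnpla3 thus rested on the probe.

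The brake on cyclic AMP and the glycerol channel come next. Pde3b (chr7:121681370-121681429) read 11.9 ± 1.19 with PBS, 12.1 ± 1.21 with PT, 12.6 ± 1.26 with daidzein and 14.9 ± 1.49 with both. The PBS, PT and daidzein arrays overlapped within their errors, and the array with both agents overlapped with the daidzein array. Both over PBS was 0.33 on the log2 scale. A further probe, from base 6507, was below background on all arrays. The log2 difference of Pde3b from PBS minus that of Lipe was -0.89 with PT, -2.21 with daidzein and -2.64 with both.

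Aqp7 (chr4:40980431-40980490, minus strand) read 0.0702 ± 0.0128 with PBS, 0.0636 ± 0.0135 with PT, 0.105 ± 0.0149 with daidzein and 0.169 ± 0.0217 with both. The PBS and PT arrays overlapped within their errors, and the array with both agents was the highest. PT over PBS was 0.906-fold (log2 -0.14), whereas PT added to daidzein was 1.61-fold (0.69). Daidzein over PBS was 1.49-fold (0.58), and daidzein added to PT 2.65-fold (1.41). Aqp7 lies in the dimmest class, in which the SD of a difference was 0.33.

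Counted over the set, PT over PBS gave 4 of 9 measured genes at 2-fold or more higher (Mgll, G0s2, Ces1f and Ces1d), beside 0.872% of all genes, and 0 lower, beside 0.0634%. Their median log2 difference was 0.94, beside -0.02 over all genes. Under normexp, 0 of the 9 reached 2-fold and the median was 0.65. Under it Mgll had 0.59, Ces1d 0.70, Ces1f 0.73 and G0s2 0.96, all still above 0.

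Daidzein over PBS gave 6 of 9 at 2-fold or more higher, beside 1.10% of all genes, and 0 lower, beside 0.368%. The 6 were Pnpla2, Lipe, Mgll, G0s2, Ces1f and Ces1d, with a set median of 2.23 beside -0.03 over all genes. Abhd5, Aqp7 and Pde3b were under 2-fold. Under normexp the count was 5, since Ces1d had 0.66, and the median 1.76. Pnpla3, not measured with PBS, is outside this count.

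With both agents over PBS, 7 of 9 were at 2-fold or more higher, beside 2.53% of all genes, and 0 lower, beside 0.549%. Aqp7 joined the 6 of daidzein alone at 2.4-fold (log2 1.27), and under normexp its difference was 0.46 and the count 6. The median was 2.85, beside -0.03 over all genes. Both over PT gave 6 of 9 higher, beside 2.10%, and 0 lower, beside 0.854%, with a median of 1.92 beside -0.01. Under normexp this count was 5, since Aqp7 had 0.63.

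For PT on top of daidzein, 4 of 10 measured genes were at 2-fold or more higher (Mgll, G0s2, Ces1f and Pnpla3), beside 1.09% of all genes, and 0 lower, beside 0.102%. The median was 0.68, beside 0.01 over all genes. With the mean over all probes of a gene the count was 2, because Mgll gave 0.95 and Pnpla3 0.96, their dim probes included. Under normexp it was 3, without Pnpla3. The lipases Pnpla2 and Lipe stayed under 2-fold, at 0.63 and 0.67.

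**Figure D3:**
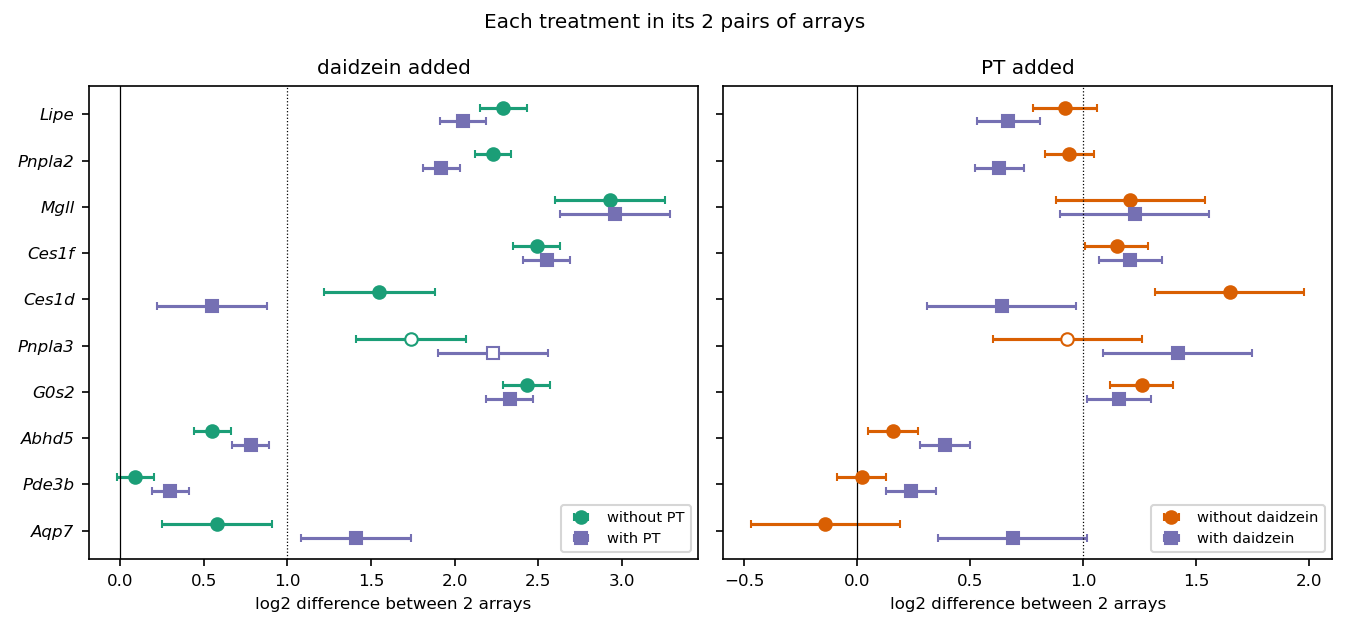
Log2 difference of PT (with PT over without) and of daidzein (with daidzein over without) for each of the 10 genes, each on the pair of arrays without the other agent and on the pair with it. Bars are 1 SD of a difference of 2 arrays, estimated from the departure from additivity over all genes of the same signal class, open points were not well above background on both arrays, and dotted lines mark 2-fold. Ces1d has a larger PT value without daidzein (1.65) than with it (0.64), and Aqp7 the opposite (-0.14 and 0.69).

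Each agent could be compared with and without the other on pairs that share no array. The PT difference on the daidzein background minus that on the PBS background was 0.02 for Mgll, 0.06 for Ces1f, -0.10 for G0s2, -0.25 for Lipe and -0.31 for Pnpla2. The same quantity had an SD over all genes of 0.46 in the dimmest class, 0.20 in the middle class and 0.16 in the brightest. On the processed signal Mgll, Ces1f and G0s2 lay within 1 SD of their class, Lipe just beyond it and Pnpla2 near 2 SD below 0. Abhd5 had 0.23 and Pde3b 0.22. Ces1d had -1.01 and Aqp7 0.83, both in the dimmest class. Under normexp the values were -0.27 for Ces1d, 0.50 for Aqp7, 0.51 for Mgll, 0.38 for Ces1f, 0.13 for G0s2, -0.02 for Lipe and -0.34 for Pnpla2. Which of the dim genes stood near additivity thus depended on the background correction. These differences were not tested, since each rests on 1 array a group.

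A test across genes was possible only in an additive model, which fits daidzein and PT over the 4 arrays and takes the departure from additivity as its error, with 1 residual degree of freedom. In this limma fit over 19681 genes, the prior variance followed the signal intensity. That prior carried 24.3 degrees of freedom drawn from all genes, so each SE and p rests mostly on other genes. No group had a replicate culture, so spread between like cultures was not measured apart from the departure from additivity. At an adjusted p under 0.05, 9 of the 10 members were higher with daidzein, beside 8.53% of all genes, and 0 were lower, beside 6.74%. Pnpla3, among the 9, was well above background only on the arrays with daidzein and entered the fit through them. Its daidzein coefficient (1.99) therefore rests on baselines that were not well above background. For PT, 7 of the 10 were higher, beside 2.79%, and 0 lower, beside 0.539%. Mgll had the largest daidzein coefficient, 2.94 (SE 0.12, limma adjusted p = 1.1e-16). Its PT coefficient, 1.22 (SE 0.12, limma adjusted p = 3.4e-08), differed from that of G0s2 by less than either SE. The PT coefficient of G0s2 was 1.21 (SE 0.09, limma adjusted p = 1.4e-09), and that of Pnpla2 0.78 (SE 0.08, limma adjusted p = 1.5e-07). Pde3b was the member not called for daidzein, at 0.19 (SE 0.07, limma adjusted p = 0.076).

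The 3 members not called for PT were Pde3b, Aqp7 (0.27, SE 0.32, limma adjusted p = 0.9) and Pnpla3 (1.17, SE 0.40, limma adjusted p = 0.13), while Abhd5 was called at 0.28 (SE 0.07, limma adjusted p = 0.034). These calls depended on the variance prior. Without the intensity trend, limma called 0 members for either agent, beside 0.00% of all genes for daidzein and 0.0559% for PT. The members' adjusted p then ran from 0.054 to 0.42 for daidzein and from 0.18 to 0.87 for PT. At an unadjusted p under 0.05 there were 9 and 7 members, Pnpla3 among them for both agents. How many of all genes passed that unadjusted p was not counted, so these counts have no share to stand beside.

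The genes whose 3 differences from PBS lay nearest to each member were looked up among 12265 genes with a symbol, well above background on all arrays, by Euclidean distance on the log2 scale. The search used the processed signal only. Pnpla2 and Lipe were each other's nearest gene, at 0.13. Under normexp they lay further apart, with Lipe minus Pnpla2 at -0.26 with PT, -0.47 with daidzein and -0.41 with both. The next nearest to Lipe was Gpat3 (0.16), an acyltransferase of triglyceride synthesis. G0s2 was nearest to Retn, the adipokine resistin (0.09), and to Adig (0.15), and Ces1f to G0s2 (0.16) and Retn (0.19). Mgll was nearest to Cox8b, a cytochrome oxidase subunit (0.17), and Orm2, a plasma glycoprotein (0.19). Aqp7 was nearest to Hadhb, a subunit of mitochondrial fatty acid oxidation (0.20), and Dbt, of branched-chain amino acid breakdown (0.21). Ces1d had no gene as near, with Sh2d3c at 0.52 and the triglyceride-forming acyltransferase Dgat2 at 0.57. These distances describe 3 differences that share the PBS array.

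The rest of the lipolytic pathway was described from 6 gene lists, by the difference of daidzein+PT over PBS, in which 2.53% of all genes were 2-fold or more higher and 0.549% lower. In cyclic AMP and protein kinase A signalling, 3 of 16 measured genes were at 2-fold or more higher and 1 lower, with a median of 0.03. The catecholamine receptor Adrb3 (3.15) and the corticotropin receptor Mc2r (3.07) were highest, both in the dimmest class. Under normexp both differences were smaller but stayed above 2-fold. Mc2r then had 2.05 and Adrb3 less than Mc2r, so their order turned. Adcy7, an adenylyl cyclase (-1.14, and -0.72 under normexp), and Prkg2, a cyclic GMP kinase (-0.89), were lowest. The kinase subunit Prkar2b had 0.79.

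Among inputs that restrain lipolysis, 1 of 19 measured genes was at 2-fold or more higher and 0 lower (median 0.01). That gene was Abhd15, which takes part in insulin's restraint of lipolysis (2.65), followed by the insulin receptor Insr (0.92). Adra2a, the inhibitory adrenergic receptor (-0.54), and Pik3cd, a kinase subunit (-0.46), were lowest, and Hilpda had -0.25. G0s2 and Hilpda, both inhibitors of Pnpla2, thus differed in sign here, at 3.59 and -0.25; the limma adjusted p of Hilpda was 0.24 for daidzein and 0.69 for PT.

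The list of lipid droplet coat proteins and fatty acid carriers, called droplet genes below, held the largest share. In it 7 of 14 were at 2-fold or more higher and 0 lower (median 0.99). The 7 included the carriers Fabp4 (3.08) and Fabp5 (1.88), and Cav1 (1.18). Cidec, which enlarges droplets (3.71), and Plin1, which holds Abhd5 at the droplet in the resting cell (3.48), were highest, and Cideb and Plin3 had -0.23 each. Of the other neutral lipid hydrolases, 16 of 34 were below background on every array, and 1 of 17 measured was at 2-fold or more higher and 0 lower (median -0.03). That gene was lipoprotein lipase, Lpl (2.10), followed by Pnpla8 (0.37). Nceh1 (-0.64), a cholesteryl ester hydrolase, Abhd2 (-0.53) and the lysosomal lipase Lipa (-0.46) were below 0.

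Of the genes that handle glycerol and fatty acids afterwards, 3 of 9 measured were at 2-fold or more higher and 0 lower (median 0.48). Gpd1, which makes glycerol phosphate (3.83), and Acsl1, which activates fatty acids (2.93), led them, and the monocarboxylate carrier Slc16a1 (-0.24) and Acsl5 (-0.16) were lowest. Of transcription factors known to act on lipase genes, 3 of 14 were at 2-fold or more higher and 0 lower (median 0.20). They were Cebpa (2.49), Nr1h3 (2.16) and Pparg (1.80), adipogenic or lipid-sensing factors, and Snai1 (-0.28) and Sp1 (-0.22) were lowest. In the limma fit with the intensity trend, daidzein was called higher in 8 and lower in 0 of 15 droplet genes, 7 and 0 of 14 factors, and 6 and 0 of 11 handling genes. The calls were 4 higher and 2 lower of 18 signalling genes, 3 and 1 of 20 restraining genes, and 2 and 3 of 17 other hydrolases, beside 8.53% higher and 6.74% lower of all genes. For PT, 7 of the droplet genes, 4 handling genes, 3 factors, 2 signalling genes, 1 restraining gene and 1 hydrolase were called higher, and 1 factor lower, beside 2.79% and 0.539% of all genes. Of the genes fitted, the restraining gene Hcar2 was well above background only on the 2 arrays with daidzein and entered the fit through them. Aqp3 and Cidea were so only on the 2 arrays without daidzein, and Adrb1 only on the 2 without PT. Pck1 and Gnal were so on every array but PBS. Without the trend limma called 0 genes of these lists for either agent. At an unadjusted p under 0.05 it then had, for daidzein, 8 droplet genes higher and 2 lower, 7 and 0 factors, 5 and 1 handling genes, 5 and 2 signalling genes, 4 and 1 restraining genes, and 1 and 2 hydrolases. For PT these were 7 and 0, 3 and 1, 5 and 0, 4 and 1, 2 and 1, and 1 and 1, in the same order. The counts at an unadjusted p have no share of all genes beside them, as none was counted.

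**Figure D4:**
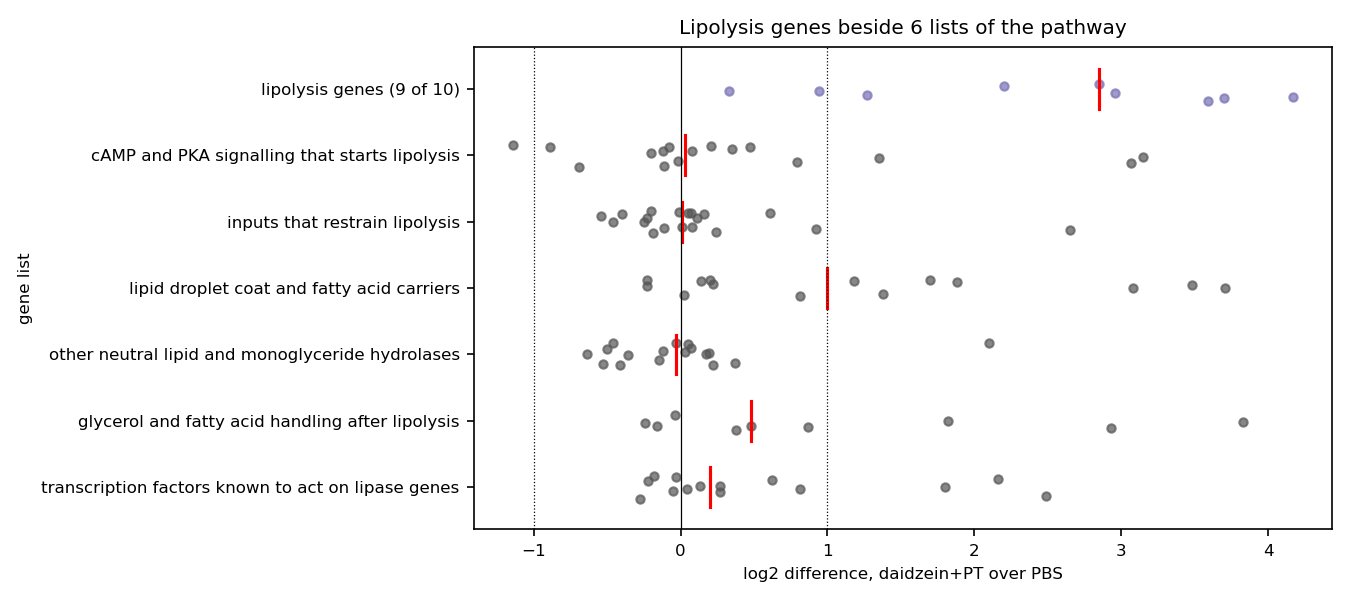
Log2 difference of daidzein+PT over PBS (horizontal axis) of each measured gene in the lipolysis set and in the 6 pathway lists (vertical axis). Each point is a gene and the red bar the median of its list. The lipolysis set has its median at 2.85 and the list of droplet coat and fatty acid carriers at 0.99. The medians of the other hydrolases and of the signalling and restraining lists lie between -0.03 and 0.03.

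The promoters of Pnpla2, G0s2 and Abhd5 are printed because the 3 proteins act at the same step while their RNA differences from PBS were unequal. They are the 250 bases before the start in RefSeq (GRCm38.p6), 5′ to 3′ on the gene's strand, at chr7:141454938-141455187 (plus strand), chr1:193273189-193273438 (minus strand) and chr9:122351366-122351615 (plus strand). Capitals mark the GC box GGGCGG and the nuclear receptor core AGGTCA on either strand.
Pnpla2 promoter: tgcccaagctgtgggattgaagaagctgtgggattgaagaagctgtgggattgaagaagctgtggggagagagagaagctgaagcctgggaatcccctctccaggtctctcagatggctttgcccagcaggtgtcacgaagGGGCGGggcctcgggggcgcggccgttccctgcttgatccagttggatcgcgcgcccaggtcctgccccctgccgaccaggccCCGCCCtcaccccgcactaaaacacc
G0s2 promoter: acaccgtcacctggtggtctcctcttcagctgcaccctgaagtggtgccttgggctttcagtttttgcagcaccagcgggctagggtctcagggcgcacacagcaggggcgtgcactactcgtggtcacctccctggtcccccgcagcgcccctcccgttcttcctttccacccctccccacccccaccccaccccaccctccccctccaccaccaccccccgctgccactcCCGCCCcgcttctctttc
Abhd5 promoter: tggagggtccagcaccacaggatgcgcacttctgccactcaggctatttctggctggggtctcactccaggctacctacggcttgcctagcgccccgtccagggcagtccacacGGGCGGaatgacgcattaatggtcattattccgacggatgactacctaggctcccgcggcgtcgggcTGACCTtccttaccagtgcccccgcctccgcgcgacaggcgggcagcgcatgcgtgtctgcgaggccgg

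RefSeq windows were matched for 7 of the 10 genes, 10 windows in all, with no entry for Ces1f, Ces1d and Pde3b. The GC box was in 6 of the 10 windows (G0s2, Mgll, Lipe, Pnpla2, Abhd5 and Pnpla3), beside 32.7% of all 32851 windows of that length. It occurred in the printed windows 2 times for Pnpla2 and 1 time each for G0s2 and Abhd5. AGGTCA was in 3 windows, both of Aqp7 and that of Abhd5, beside 14%. The windows of Aqp7 overlap and share a site, so they are not separate cases. The direct repeat of AGGTCA with 1 free base between the copies was in 0 windows, beside 0.0335%. The E-box CACGTG was in 2 windows (Mgll and Lipe), beside 6.02%. CCAAT was in 1 (Pnpla3), beside 33.8%, and TTGCGCAA, a palindrome of the C/EBP family, in 0, beside 0.164%. Every motif was searched on both strands, the repeat contains AGGTCA itself, and a match describes letters in the window and not binding.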

How the data were processed

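RNA of 4 cultures was measured on 1 single-colour array each, per the labels. The deposited scanner files hold a processed spot intensity, background-subtracted and detrended by Agilent Feature Extraction 10.7.1.1 per the file headers (the submitters' processing notes give 9.5.1.1), its error, and raw mean and local background intensity. The deposited value table holds intensity on a linear scale and served only as an alternative. Each array had 62976 spots, of which 106 to 173 outliers and all controls were left out. Spots of a probe were averaged, log2 was taken, and the array's 75th percentile over 55681 probes was subtracted. Probe positions are mm9, per the file headers; 27235 probes were named by accession through a RefSeq table. A gene was represented by its brightest probe, and counted where that probe was well above background on both arrays. A probe above background on 1 side gave a ratio to its own value on the other array or to a floor, whichever was higher. The floor was the dimmest probe well above background on that other array. Readings above the floor were not always well above background, so the ratio is not a strict bound. The limma 3.58.1 fit (R 4.3.3) was over genes that 2 or more arrays measured, with Benjamini-Hochberg adjustment. Its code was also run on simulated data with independent noise of the class SDs of these arrays. Such data cannot check the calls on the real arrays.

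The members and lists were chosen with earlier results of these data known. Every member is named. From each list the 2 highest and 2 lowest genes with both agents, and further genes fixed with the lists, are named, except that some items are not reported here, and for members at 2-fold the 2 nearest genes. Marker genes defined the cell type check. Alternatives were normexp, quantile normalization, median scaling, the deposited table, mean over probes, no filter, and eBayes without trend. The number of arrays limits the precision.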

Additional observations from a re-analysis of the deposited data

Results flagged for a closer look

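Aqp7, the glycerol channel, was the 1 member whose PT difference had opposite signs on the 2 pairs of arrays. It was -0.14 on the log2 scale without daidzein and 0.69 with it, so that the pairs differed by 0.83. The difference was not tested, since each array stands alone, and the PBS and PT readings of Aqp7 overlapped within their spot errors.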

How the results depend on the processing

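With 1 array a group, no replicate could be left out. No paired analysis was possible because the labels give 1 sample a group and no pairing. No member difference of 2-fold or more changed sign under the alternatives run, but some smaller ones did. With the mean over probes, Pnpla3 in PT over PBS went from 0.93 to -0.18 and Pde3b in daidzein over PBS from 0.09 to -0.05. Under normexp the departure of G0s2 from additivity went from -0.10 to 0.13. Under quantile normalization, median scaling and the deposited table, every member's difference moved by less than the SD of its class. Under normexp, the count at 2-fold or more higher in PT over PBS was 0 in place of 4, and the set medians were 0.65 for PT over PBS, 1.76 for daidzein over PBS and 2.39 for both over PBS. When probes of a gene were averaged, the count in both over daidzein was 2 in place of 4 and the additive fit's count for PT was 4 in place of 7. Without the filter on dim probes, the median of daidzein over PBS was 1.98. Without the intensity trend, the additive fit called 0 members for daidzein in place of 9 and 0 for PT in place of 7. The causes were not tested, except that the normexp offset shrinks differences of dim spots by construction. Signal over background limits Pnpla3, Aqp7, Ces1d and Mgll, all in the dimmest class. Normexp moved 33 of 60 member values by at least the SD of their class, in the middle class too. There, daidzein over PBS went from 2.29 to 1.76 for Lipe, 2.43 to 1.99 for G0s2 and 2.49 to 1.88 for Ces1f.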
